A study of Homo sapiens with 3 samples.

Results

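The IGF binding proteins and IGF receptors were followed by RNA-seq in the human esophageal squamous cell carcinoma line TE5, in cells given short hairpin RNA against KLF5 or a scrambled control. The group held 10 genes of 52992 with summed counts: the binding proteins IGFBP2 to IGFBP7, the receptors IGF1R and IGF2R, the ligand IGF2 and the adaptor IRS1. They were selected on their estimated counts and TPM in these same 3 libraries, and are listed by gene symbol. TPM is a level per transcript length, and both measures were summed over the transcripts of each Ensembl gene. IGF2 carries a second Ensembl identifier, with 0 counts in all 3 libraries, which was not used. The scramble group had 1 library and the shKLF5 group had 2, numbered 1 and 2; separate hairpins and repeat cultures of 1 hairpin cannot be told apart from the labels. All 3 came from transfected TE5 cells grown in RPMI-1640 medium with fetal bovine serum and harvested after 48 h. The labels give no untransfected sample, and TE5 is the only line here.

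Insulin-like growth factors signal through IGF1R, a receptor tyrosine kinase that phosphorylates IRS adaptors and so engages PI3K, AKT and mTOR. The classical secreted binding proteins hold IGFs in the extracellular fluid, where they can withhold the ligand from the receptor or release it after proteolysis, and IGFBP7 is a more distant relative with weak IGF binding. IGF2R, the cation-independent mannose 6-phosphate receptor, takes IGF2 to lysosomes and has no kinase. IGFBP3 is commonly expressed in squamous carcinomas.

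The libraries held 33448976 (scramble), 33544752 (shKLF5 library 1) and 32720563 (shKLF5 library 2) estimated counts. KLF5, the target, had 8402, 1333 and 1531 counts in that order. CPM (counts relative to library size) were scaled by TMM, a normalization that centres most genes between libraries, whose factors were 0.82 for scramble and 1.11 and 1.10 for the shKLF5 libraries. By summed TPM, 9 squamous epithelial markers stood at 3669, 1173 and 606, 8 fibroblast markers at 17.6, 27.0 and 16.2, and 6 leukocyte markers at 4.30, 10.8 and 14.7. The hepatocyte markers ALB, TTR and APOA1 had at most 3 counts each. All 3 libraries were of the TE5 line, so the fibroblast, leukocyte and hepatocyte markers are not read as shares of such cells. In a bulk sample, fewer cells expressing a gene and less RNA per cell cannot be told apart. The members were proposed with their values in these libraries known, so their differences are described and not tested. Across all genes edgeR's quasi-likelihood test called 0 of 20629 (0%) with the Benjamini-Hochberg adjusted p held under 0.05. Unadjusted, 1893 lay under 0.05. DESeq2 called 116 genes, edgeR's legacy fit 21 and limma 0. Nothing in the labels says that the 2 shKLF5 libraries came from separate cultures, so the spread between them may be technical. Each SE also leans on variance estimates shared across all genes, with 6.86 prior degrees of freedom against 1 residual. It is therefore not the spread of the 2 libraries alone.

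Of the 10 genes, 8 passed the filter on low counts, and of those 6 were lower and 2 higher than scramble in both shKLF5 libraries by TMM-scaled CPM, against 4 lower in both with library size alone and 5 with counts made from TPM. The share of all genes tested on the lower side in both was 36.5%, and on the higher side 37.9%. All 8 had a mean of at least 5 CPM, and among genes of that level these shares were 50.8% and 23.5%. The lower ones were IGFBP2, IGFBP3, IGFBP4, IGFBP5, IGF1R and IGF2, and the higher ones were IGF2R and IRS1. With library size alone, IGFBP4 and IGF1R lay above scramble in library 1 (log2 values of 0.27 and 0.30). That scaling moved the median of all genes from 0.04 to 0.47 on the log2 scale.

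IGFBP3 was the dominant binding protein of these cells and was far lower in shKLF5 library 2 than in the other libraries. IGFBP3 (ENSG00000146674; GRCh38 chromosome 7, 45912245 to 45921874, minus strand), the main IGF carrier of serum and a known p53 target, had 115909 counts in the scramble library against 97751 and 21353 in shKLF5 libraries 1 and 2. On the TMM-scaled CPM scale this was 4359.9, 2728 and 614. Scramble was the highest, library 1 stood 1.60-fold below it and library 2 stood 7.10-fold below it, so the 2 shKLF5 libraries lay further from each other (4.44-fold) than library 1 lay from scramble. The fitted log2 fold change was -1.38 (SE 0.72). By TPM it ranked 17 among 19428 protein-coding genes in scramble, 16 in library 1 and 124 in library 2.

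The IGFBP3 gene value was shared by several mRNA forms. The main form, IGFBP3-203, had 89047, 70647 and 16015 estimated counts in scramble and libraries 1 and 2, and IGFBP3-201, which starts 2 bases away, had 23736, 24510 and 4662. Minor forms named here and below with under 5% of a gene's counts were chosen after their values were seen. The retained-intron form IGFBP3-208 had 692, 507 and 134 counts and the retained-intron form IGFBP3-207 had 603, 585 and 163. Each of these 4 forms was lowest in library 2. Kallisto shares reads between forms that overlap, so the split between IGFBP3-203 and IGFBP3-201 is an estimate.

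The window around the IGFBP3 start, from 250 bases before it to 50 after, is shown because this gene carried nearly all binding protein mRNA. RefSeq sequences on GRCh38.p14 were found for 8 of the 10 genes, all but IGFBP7 and IGF2. Capitals mark matches to CCNCNCCC, the type of GC-rich element bound by KLF and SP factors, on either strand; matches may overlap each other.
IGFBP3, chr7:45921223-45921522, minus strand: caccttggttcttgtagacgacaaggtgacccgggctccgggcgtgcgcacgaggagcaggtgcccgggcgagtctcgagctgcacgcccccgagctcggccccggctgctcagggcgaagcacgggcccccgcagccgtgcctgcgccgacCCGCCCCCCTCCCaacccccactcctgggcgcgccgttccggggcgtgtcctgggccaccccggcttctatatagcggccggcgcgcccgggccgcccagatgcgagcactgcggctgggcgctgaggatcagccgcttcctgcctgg
This window held 2 matches to CCNCNCCC and 2 to the GC box GGGCGG, of which 1 overlapped a CCNCNCCC match. Of 35116 windows of the same length, 56.2% held CCNCNCCC and 45.0% held GGGCGG, so such matches are common. A match describes the sequence only.

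IGFBP5 showed the widest gap between the shKLF5 libraries. IGFBP5 (ENSG00000115461; chromosome 2, 216672105 to 216695525, minus strand), a binding protein that also attaches to extracellular matrix, had 1854 counts in the scramble library against 1567 and 62 in libraries 1 and 2, or 69.7, 43.7 and 1.78 CPM. Library 1 was close to scramble, 1.59-fold lower, while library 2 was 39.1-fold lower than scramble. Between the shKLF5 libraries the gap was 24.5-fold, a log2 difference of -4.57 with a 95% interval of -5.01 to -4.25 that covers counting error only. With counts made from TPM that difference was -3.97, and library 2 stood at -4.64 against scramble. Among the genes tested, 5 had a lower value in library 2 relative to library 1, IGFBP5 being number 6 of 20629 in that order. The fitted log2 fold change of -1.62 (SE 1.21) therefore averages unlike libraries: it was -0.67 with library 1 alone and -5.24 with library 2 alone.

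Nearly all IGFBP5 reads belonged to 1 mRNA. IGFBP5-201, of 6215 bases, held 1854, 1567 and 59.6 estimated counts. Markers of fibroblasts, which also make IGFBP5, did not move as 1 set: COL3A1 had 484, 435 and 48 counts in scramble and libraries 1 and 2, COL1A1 had 1291, 2195 and 1495, COL1A2 had 1, 18 and 15, LUM had 9, 20 and 4, and DCN had 4, 9 and 7. Of the 8 fibroblast markers, 0 were at 0 in every library. All 3 libraries came from the TE5 line alone, so these counts are not read as a share of fibroblasts. The relation of these genes to the IGFBP5 value was not tested. The IGFBP5 window is shown as that of the member with the widest gap.
IGFBP5, chr2:216695500-216695799, minus strand: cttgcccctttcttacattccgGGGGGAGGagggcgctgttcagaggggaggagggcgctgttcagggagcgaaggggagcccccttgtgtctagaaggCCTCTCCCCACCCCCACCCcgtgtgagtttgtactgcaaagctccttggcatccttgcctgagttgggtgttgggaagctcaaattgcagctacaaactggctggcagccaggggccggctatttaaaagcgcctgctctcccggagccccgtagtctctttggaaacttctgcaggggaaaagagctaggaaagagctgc
It held 5 matches to CCNCNCCC (capitals) and 0 to GGGCGG, and its GC content was 59.0% against 74.7% for the IGFBP3 window and a median of 58.7% over all windows.

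IGFBP2 lies beside IGFBP5, on the opposite strand, with 7668 bases between their facing ends and 0 annotated genes of the table within that gap. IGFBP2 (ENSG00000115457; chromosome 2, 216632828 to 216664436, plus strand), a binding protein of fetal tissues and many carcinomas, had 891, 625 and 187 counts, or 33.5, 17.4 and 5.38 CPM. Scramble was highest and library 2 lowest, with library 1 1.92-fold and library 2 6.23-fold below scramble. The fitted log2 fold change was -1.55 (SE 0.62). Library 2 was 3.24-fold below library 1 (log2 -1.69, counting interval -1.94 to -1.46), a narrower gap than that of its neighbor. The full coding form IGFBP2-201 had 351, 263 and 77.8 estimated counts, and the short form IGFBP2-204 had 401, 224 and 62.8. The short form IGFBP2-203 had 102, 102 and 34.4, and the retained-intron form IGFBP2-205 had 37.0, 36.1 and 12.4. Before scaling, the latter forms were thus near the scramble count in library 1, and all the forms named were lowest in library 2.

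The other binding proteins were weak or near absent. IGFBP4 (ENSG00000141753; chromosome 17, 40443461 to 40457731, plus strand), the substrate of the protease PAPPA, had 287, 347 and 276 counts, or 10.8, 9.68 and 7.94 CPM. Its log2 fold change of -0.29 (SE 0.44) turned to 0.14 with library size alone, so no direction is read from it. IGFBP6, which prefers IGF2 as its ligand, had 0, 4 and 2 counts, and IGFBP7 had 0, 1 and 4. A count of 0 allows up to 3 counts, so neither gene was measurable at this depth and no fold is given. IGFBP1, the neighbor of IGFBP3 on chromosome 7 at 18.6 kb, had 0, 4 and 2 counts.

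Summed over IGFBP2 to IGFBP7, the binding protein mRNA came to 2018 TPM in scramble, 1760.5 in library 1 and 378 in library 2. IGFBP3 made up 97.6%, 97.8% and 96.8% of that sum by TPM. In scramble the order by TPM was IGFBP3 at 1969.5, IGFBP2 at 33.7, IGFBP5 at 9.89 and IGFBP4 at 4.55. In library 1 the order was the same, with 1722, 24.0, 8.68 and 5.72. In library 2 IGFBP4, at 4.35, stood above IGFBP5, at 0.47, so the order of these 2 genes was not the same in the shKLF5 libraries.

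IGF2 was the only ligand with substantial counts, and it was lower in both shKLF5 libraries. IGF2 (ENSG00000167244; chromosome 11, 2129112 to 2149603, minus strand), an imprinted fetal growth factor, had 904 counts in the scramble library against 489 and 252 in libraries 1 and 2, or 34.0, 13.6 and 7.25 CPM. Library 1 was 2.49-fold and library 2 4.69-fold below scramble, and library 2 was 1.88-fold below library 1. The log2 fold change was -1.70 (SE 0.47). Per length the level was modest, at 6.09, 3.38 and 1.64 TPM. IGF1, the other ligand, had 7, 55 and 35 counts, and INS had 0, 1 and 0. Fetal bovine serum in the medium brings IGFs that RNA-seq does not measure.

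The 3 IGF2 mRNAs with counts start at separate sites and differed in their ratios to scramble. IGF2-203, starting at 2137290, had 457, 133 and 79.1 estimated counts in scramble and libraries 1 and 2. IGF2-205, starting at 2139389, had 340, 303 and 112, and IGF2-204, starting at 2138974, had 107, 49.2 and 60.4. The share of IGF2-203 among IGF2 counts was 50.5% (95% exact Clopper-Pearson interval 47.2% to 53.9%) in scramble, 27.2% (23.3% to 31.4%) in library 1 and 31.4% (25.7% to 37.5%) in library 2. IGF2-203 was thus the largest form in scramble, and IGF2-205 the largest in both shKLF5 libraries. These intervals cover counting error only, and the forms share their coding exons, so the shares rest on reads from the first exons.

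**Figure D1:**
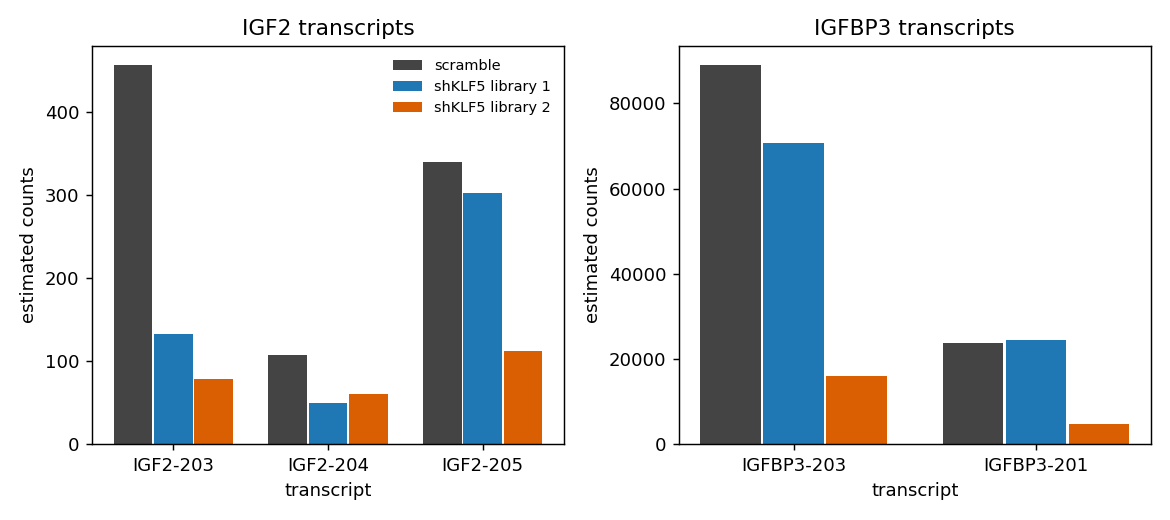
Estimated counts, not scaled, of the 3 IGF2 mRNAs (left) and the 2 main IGFBP3 mRNAs (right), with 1 bar for each library. IGF2-203 has 457 counts in scramble against 133 and 79.1, and IGF2-205 has 340 against 303 and 112. IGFBP3-203 has 89047 against 70647 and 16015, and IGFBP3-201 has 23736 against 24510 and 4662. After TMM scaling the IGFBP3 gene is 1.60-fold below scramble in library 1.

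H19, the imprinted noncoding gene that shares enhancers and an imprinting control region with IGF2, showed values in the same order. H19 lies 127.6 kb from IGF2 and had 141, 74 and 34 counts. The fit gave a log2 fold change of -1.80 (SE 0.59), the single libraries stood at -1.34 and -2.37, and edgeR's quasi-likelihood test gave an unadjusted p of 0.0168 and an adjusted p of 0.474.

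IGF2R was higher in both shKLF5 libraries, whereas the direction of IGF1R differed between scalings. IGF2R (ENSG00000197081; chromosome 6, 159969099 to 160113507, plus strand), the clearance receptor of IGF2, had 8536 counts in the scramble library against 15704 and 16108 in libraries 1 and 2, or 321, 438 and 463 CPM. The shKLF5 libraries lay close together, at 1.36-fold and 1.44-fold above scramble, with a log2 fold change of 0.49 (SE 0.36). That value depended on the processing: it was 0.92 with library size alone, 0.96 by limma on log2(TPM + 1), 0.67 for genes with a mean of at least 5 CPM and 0.61 from protein-coding transcripts. The full-length form IGF2R-201 had 8348, 15464 and 15552 counts, which is 30.2, 58.1 and 56.0 TPM. Library 2 exceeded library 1 in gene-level TPM (87.3 against 73.4) only through the short form IGF2R-203, with 185, 225 and 537 counts in scramble and libraries 1 and 2. M6PR, the other mannose 6-phosphate receptor, had 4726, 6974 and 7017 counts, with log2 values of 0.13 and 0.18 in libraries 1 and 2.

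IGF1R (ENSG00000140443; chromosome 15, 98648539 to 98964530, plus strand), the signalling receptor, had 4010, 4939 and 2884 counts, or 151, 138 and 82.9 CPM. Library 1 was near scramble and library 2 was 1.82-fold below it. The log2 fold change was -0.45 (SE 0.40) under TMM, -0.02 with library size alone and 0.31 by limma on log2(TPM + 1). By TPM the gene stood at 13.7, 22.9 and 13.0, and short forms made up part of the higher value of library 1: IGF1R-207, IGF1R-209 and IGF1R-211 added 2.34, 2.10 and 2.51 TPM there from 60.9, 25.3 and 27.1 counts. The full-length IGF1R-201 had 2366, 3185 and 1530 counts and IGF1R-206 had 1457, 1585 and 1274. The retained-intron form IGF1R-210 had 184, 40.8 and 18.5 unscaled counts. INSR, the insulin receptor that can pair with IGF1R, had 841, 1420 and 1211 counts, and the ratio of IGF1R to INSR by TPM was 3.84, 3.71 and 2.25. The ratio of IGF2R to IGF1R by TPM was 2.96, 3.20 and 6.74.

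IRS1 was higher in both shKLF5 libraries. IRS1 (ENSG00000169047; chromosome 2, 226731317 to 226799759, minus strand), the docking protein that links IGF1R and the insulin receptor to PI3K, had 462 counts in the scramble library against 1431 and 1742 in libraries 1 and 2, or 17.4, 39.9 and 50.1 CPM. Both shKLF5 libraries lay above scramble, by 2.30-fold and 2.88-fold, and 1.25-fold apart from each other. The log2 fold change was 1.37 (SE 0.41), and 1.80 with library size alone. The coding form IRS1-201 had 436, 1377 and 1649 estimated counts. The noncoding form IRS1-202, of 506 bases, had 26.1, 54.5 and 92.6. By TPM that short form made up 62.55%, 52.4% and 60.8% of the gene, so IRS1 values from TPM rest largely on it. The paralog IRS2, from the list of other pathway genes, had 1475, 3581 and 6388 counts. Its fitted log2 fold change was 1.35 (SE 0.47), and the single libraries stood at 0.85 and 1.73. IRS4, another adaptor, had 11, 39 and 34 counts.

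The IRS1 window is shown because IRS1 had the highest log2 fold change of the group.
IRS1, chr2:226799771-226800070, minus strand: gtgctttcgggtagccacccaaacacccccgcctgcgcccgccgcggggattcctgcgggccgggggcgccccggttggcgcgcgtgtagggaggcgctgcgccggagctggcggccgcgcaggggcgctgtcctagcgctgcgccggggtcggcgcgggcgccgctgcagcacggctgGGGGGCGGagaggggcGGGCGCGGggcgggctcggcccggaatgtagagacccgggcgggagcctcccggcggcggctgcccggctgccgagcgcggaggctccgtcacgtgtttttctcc
It held 2 matches to CCNCNCCC (capitals) and 4 to GGGCGG, of which 3 overlapped a CCNCNCCC match, with a GC content of 79.3%. The IGF2R window, also of a gene higher in both shKLF5 libraries, held 8 and 6 matches, with a GC content of 78.7%. Among genes lower in both by TMM-scaled CPM, the IGFBP4 window held 6 and 2 and the IGF1R window 2 and 2. The IGFBP2 windows held from 0 to 5 matches to CCNCNCCC. The relation of matches to direction was not tested.

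When shKLF5 library 2 was set against library 1, 3 binding proteins were lower by more than 2-fold. At least 2-fold lower in library 2 were 3 of the 8 genes, IGFBP5, IGFBP3 and IGFBP2, and 0 were at least 2-fold higher. Among all genes tested 8.44% were at least 2-fold lower and 7.34% at least 2-fold higher. Among the 11017 genes with a mean of at least 5 CPM, the level of all 8, these were 739 lower and 303 higher. The log2 difference between the libraries was -0.91 for IGF2 (counting interval -1.14 to -0.69), -0.73 for IGF1R (-0.80 to -0.67) and -0.28 for IGFBP4 (-0.52 to -0.05). It was 0.33 for IRS1 (0.23 to 0.43) and 0.08 for IGF2R (0.05 to 0.11). KLF5 itself stood at 37.2 CPM in library 1 and 44.0 CPM in library 2, and the part of KLF5 level in these differences was not tested. There is 1 library on each side of this comparison, so it has no replicate check.

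Against scramble, at least 2-fold lower values were found for IGF2 alone in library 1 (3.67% of all genes tested) and for IGFBP2, IGFBP3, IGFBP5 and IGF2 in library 2 (11%). With library size alone the IGF2 value in library 1 was -0.88 on the log2 scale, short of 2-fold. IRS1 was the one gene of the 8 at least 2-fold higher, in library 1 (12.1% of all genes) and in library 2 (16.5%). With counts made from TPM its log2 value in library 1 was 0.87, also short of 2-fold. The 2 comparisons share the scramble library. The squamous marker sum of 3669, 1173 and 606 TPM followed the same order of libraries as IGFBP2, IGFBP3, IGFBP5 and IGF2, and its part in these values was not tested. Most of that sum was KRT5 (2110.5, 514 and 188 TPM) and KRT6A (1011, 248 and 208 TPM). By TPM 8 of the 9 markers had this order, and SOX2, at 81.5 TPM in scramble and 113 TPM in library 1, did not.

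**Figure D2:**
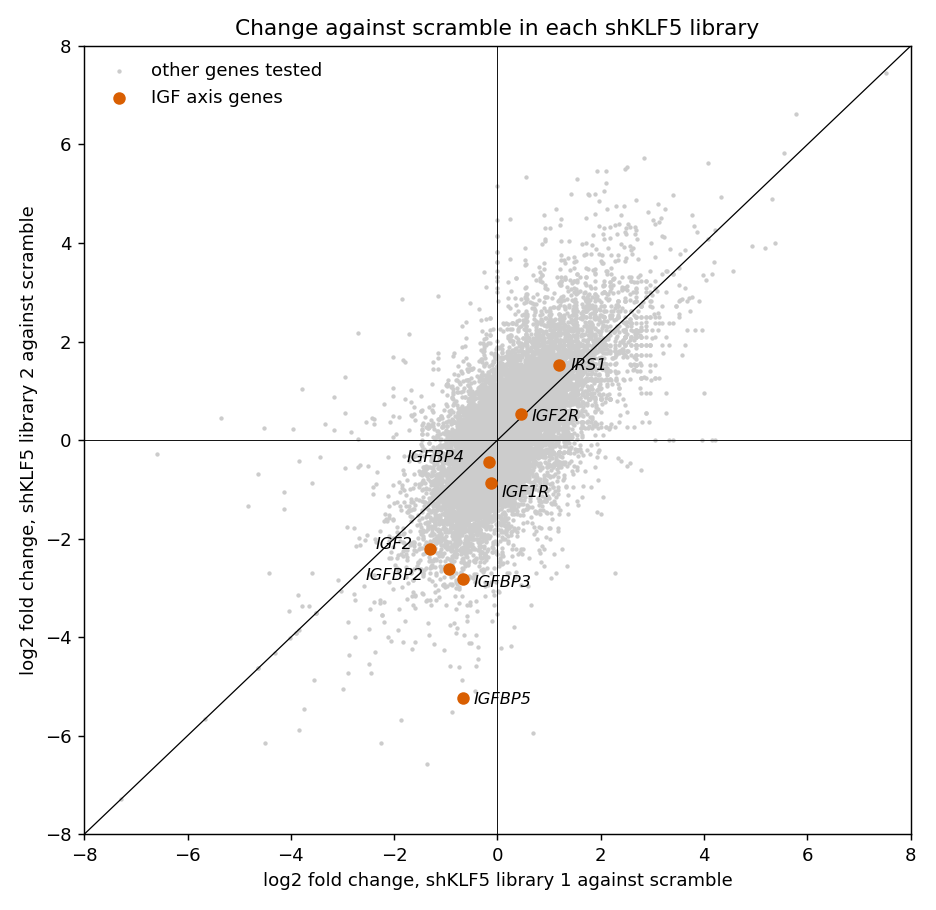
Log2 fold change against scramble in shKLF5 library 1 (horizontal) and library 2 (vertical) for all 20629 genes tested (grey) and the 8 IGF axis genes (orange), with the diagonal of equal change; both axes share the scramble library. IGFBP2, IGFBP3 and IGFBP5 lie well below the diagonal, and IGF2R and IRS1 lie near it.

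The genes most like IGFBP5 were sought among 10375 other protein-coding genes with a mean of at least 5 CPM, by Euclidean distance between the log2 values of libraries 1 and 2 against scramble, a measure over only 3 libraries. The nearest were VSNL1 (distance 1.05), a neuronal calcium sensor, CYP26A1 (1.09), which breaks down retinoic acid, NTS (1.13), which encodes neurotensin, FBN1 (1.23), the microfibril protein fibrillin, and the readthrough gene SEPT5-GP1BB (1.28). CYP26A1 had 1147, 1194 and 80 counts in scramble and libraries 1 and 2, and FBN1 had 691, 396 and 49. None lay within a distance of 1.

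The rest of the pathway was read from a list of 54 other genes, of which 52 were tested. EdgeR's quasi-likelihood test called 0 of them at an adjusted p under 0.05, and DESeq2, edgeR's legacy fit and limma also called 0. By unadjusted p under 0.05, 5 were higher and 1 lower, where 5.68% of all genes were higher and 3.5% lower. Of the higher ones, IGF1, PAPPA, PAPPA2 and INSRR had 7, 10, 0 and 0 scramble counts. They passed the low-count filter only through the shKLF5 libraries, which set their direction, so it is not read as a result. By value 22 were higher in both shKLF5 libraries, 18 lower in both and 12 on opposite sides. Among all genes tested these shares were 37.9%, 36.5% and 25.4%. The 22 include the genes just named and also IGFALS, STC2 and IGF2BP1, which likewise passed the filter only through the shKLF5 libraries. The count of 22 is therefore not read as a result. The median log2 fold change was 0.03, against 0.04 over all genes tested.

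Besides H19 and IRS2, those with the smallest p were genes of low count that passed the filter only through the shKLF5 libraries. Their direction and p are therefore not read as results. PAPPA, the protease that cleaves IGFBP4, had 10, 50 and 72 counts, its scramble value lying just under the limit of the filter. IGF1 had 7, 55 and 35 counts. PAPPA2, which cleaves IGFBP3 and IGFBP5, had 0, 12 and 5 counts. Set over a scramble floor of 3 counts, library 1 stood at 2.97 times that floor and library 2 at 1.27 times. INSRR, an insulin receptor relative, had 0, 13 and 4 counts, or 3.21 and 1.02 times the floor. These ratios leave out the counting error of the shKLF5 counts, so they are not lower bounds. PAPPA2 and INSRR passed the filter only through library 1, so no fold is read from the ratios of either library. The adjusted p by edgeR was 0.474 for H19, PAPPA and IRS2 and 0.476 for IGF1, PAPPA2 and INSRR. Low-count genes were higher in general: the median was 0.48 for genes with a mean under 5 CPM and -0.16 for those of at least 5 CPM.

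Some PI3K, AKT and mTOR genes are given as examples, chosen after their values were seen, as were INSR, M6PR and IRS4. AKT1 had 2856, 3173 and 3249 counts (log2 fold change -0.24, SE 0.34) and MTOR 2664, 3670 and 3396 (0.00, SE 0.35). PIK3R1 and PIK3R3, regulatory subunits of PI3K, had 465, 415 and 273 counts and 947, 1397 and 448 counts. Between the shKLF5 libraries 5 of the 52 were at least 2-fold lower in library 2 (GRB14, STC1, PIK3R3, INSRR and H19) and 1 at least 2-fold higher, where 8.44% of all genes were lower and 7.34% higher by that limit. The latter was EIF4EBP1, the translation repressor phosphorylated by mTOR, with 1021, 989 and 2512 counts. INSRR passed the low-count filter only through library 1, which set its direction, so its place among the lower genes is not read as a result.

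**Figure D3:**
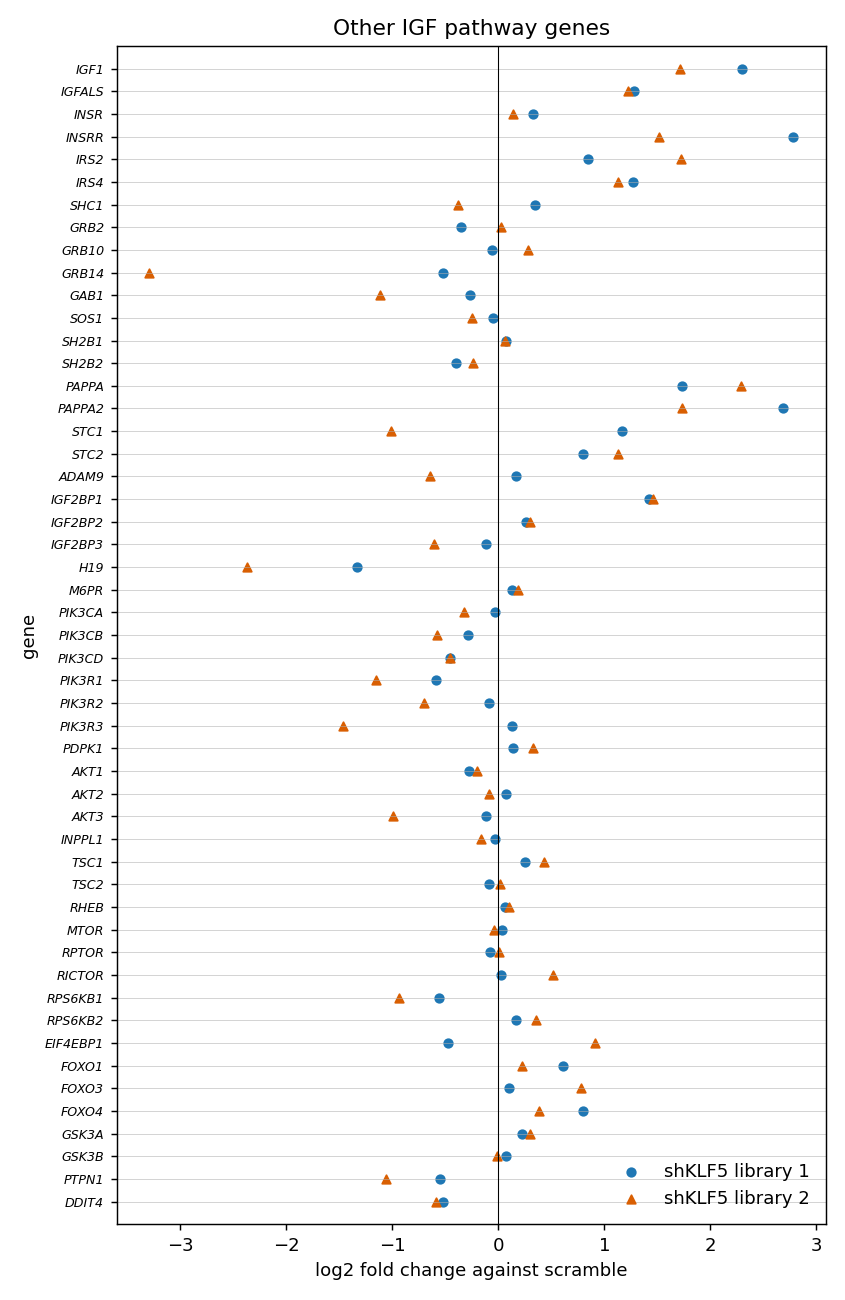
Log2 fold change against scramble of 51 of the 52 other pathway genes tested, in shKLF5 library 1 (circles) and library 2 (triangles), with ligands and receptors at the top and PI3K, AKT, mTOR and FOXO genes below. IRS2 lies right of 0 and H19 left of 0 in both libraries. IGF1, PAPPA and IGF2BP1 also lie right of 0. They passed the low-count filter only through the shKLF5 libraries, so that side is not read as a result.

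Proteins outside the family that carry an IGFBP-type domain were read from a second list of 13 genes, of which 12 were tested and 0 called by edgeR's quasi-likelihood test. By unadjusted p under 0.05, 0 were higher and 1 lower. That was NOV (CCN3), a matricellular protein, with 2702, 1758 and 878 counts; its log2 fold change was -1.45 (SE 0.44, adjusted p 0.474). CYR61 (CCN1) had 1844, 5397 and 3157 counts and stood at 0.80 (SE 0.43), and CTGF (CCN2) had 11, 61 and 18. Between the shKLF5 libraries 6 of the 12 were at least 2-fold lower in library 2, where 8.44% of all genes were. Of these, WISP1 had 2 counts in library 2, IGFBPL1 had 6, CTGF had 18 and WISP2 had 35. WISP1, with 2, 14 and 2 counts, passed the low-count filter only through library 1, which set its direction. In the other direction, WISP3, with 5, 9 and 18 counts, passed only through library 2. The median that follows includes WISP1 and WISP3. Over the 12 the median difference was -1.01 on the log2 scale, against 0.00 over all genes tested. One of them, chosen after its values were seen, was HTRA1, a secreted serine protease known to cleave IGF binding proteins, with 974, 1132 and 234 counts.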

How the data were processed

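RNA-seq of 3 TE5 libraries was deposited as 1 table per library. The deposited estimated counts are per transcript and not normalised, per the file headers, which are those of kallisto. The deposited TPM values are counts per effective length scaled to a fixed total, per the file headers. The submitters' processing notes name kallisto, DESeq2 and hg19 without tool versions; which index was used and whether strand was read is not given in the sources used here, so reads of overlapping or antisense genes may be mixed.

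Of 196354 transcripts, 181857 matched GENCODE 29 by identifier, whose GRCh38 coordinates are printed; unmatched transcripts held 3.05%, 3.42% and 3.40% of counts in scramble, shKLF5 library 1 and library 2. Counts were summed over 52992 genes, rounded, filtered (filterByExpr) and tested with edgeR 4.0.16 in R 4.3.3 (TMM, quasi-likelihood F test, legacy = FALSE, Benjamini-Hochberg over 20629 genes). The fit had 1 residual degree of freedom, so scramble, with a single library, was taken to vary like the shKLF5 group. SE is the absolute log2 fold change over the square root of F. Single-library log2 values used a prior count of 2. Counting intervals are exact conditional or Clopper-Pearson intervals at 95%; reads carried no molecular identifiers. Alternatives included limma 3.58.1 and DESeq2 1.42.0. Lists of other pathway and IGFBP-domain genes were used, with the 6 and the 3 of smallest unadjusted p named; EIF4EBP1, HTRA1 and the others said to be chosen after their values were seen lie outside that rule. Transcripts of at least 5% of a gene's counts were to be named. One pathway gene is counted but its values are not reported here. Of 34 marker genes 33 were matched. The members and lists were chosen with earlier results of these data known.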

Additional observations from a re-analysis of the deposited data

How the results depend on the processing

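Genes called numbered 0 in the main test, 21 with edgeR's legacy fit and 116 with DESeq2; pathway genes called were 0 under every alternative run. The counts of members lower in both, higher in both and at least 2-fold apart between the shKLF5 libraries stayed within 1.5 times under each alternative run, with 4 to 6 lower in both. The IGFBP4 log2 fold change turned from -0.29 to 0.14 with library size alone and to 0.11 by limma on log2(TPM + 1), and that of IGF1R turned from -0.45 to 0.31 by limma. TPM also counts short forms heavily, as the IGF1R values by form show. Leaving out shKLF5 replicate 1 or 2 gave IGFBP5 values of -5.24 and -0.67; with 1 library against 1 no test could be made, so counts of calls were not computed. No paired analysis was possible because the scramble group has 1 library. Depth limits IGFBP6 and IGFBP7, with at most 4 counts.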
